A study of Mus musculus with 79 samples.

Results

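Motile cilia are the beating projections on the multiciliated cells that line the airways, and the genes described here encode their parts and the factors that switch those parts on. The set was defined by name, as 39 mouse genes that encode ciliary transcription factors, dynein arms and their assembly factors, radial spokes, the central pair, the molecular ruler and nexin-dynein regulatory complex, tektins, adenylate kinases and other products of ciliated cells. Of these, 34 had a row among the 31350 rows of the array table, each represented by 1 transcript row. The remaining 5 genes, Dnaic2, Armc4, Dnah3, Dnah12 and Ccdc40, had no named row and were not analysed here. Its members were named without a rule on measured values, but with earlier results of these data known.

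Gene expression was measured on Affymetrix arrays in homogenized lung tissue from 79 mice, 1 array per mouse, on a log2 intensity scale in which 1 unit is a doubling. WT mice and their βENaC littermates, which overexpress Scnn1b (the β subunit of the epithelial sodium channel) in airway epithelium and serve as a model of chronic bronchitis, were on a C57BL/6J background and 5 to 7 weeks old. Males and females inhaled the smoke of 6 cigarettes a day or room air (sham) for 1 day or for 5 days, and lungs were taken 4 hours after the last exposure. The 16 combinations of genotype, exposure, sex and duration held 4 to 6 mice each, and each duration had sham mice of its own.

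A motile axoneme is a ring of microtubule doublets around a central pair. Outer and inner dynein arms on the doublets generate the sliding force, radial spokes carry signals from the central pair to the arms, and the ruler and nexin-dynein links hold the repeat in place. FOXJ1 and the RFX factors are known to activate many of the genes for these parts during formation of multiciliated cells, and the dynein arms are put together in the cytoplasm by dedicated assembly factors before they enter the cilium.

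Known RFX factors bind sites built from the half-site GTTGCC, and the promoters available for the members were searched for it on both strands, along with the forkhead motif GTAAACA. RefSeq promoters (GRCm38.p6, 250 bases before to 50 bases after each gene start) were available for 28 of the 34 members, as 32 promoters. GTTGCC was present in 15 of these 32 promoters (46.9%), compared with 12.5% of all 32851 promoters in the same table. The looser form GTTNCC, which includes every GTTGCC, was present in 27 of 32 (84.4%) and in 45.3% of all promoters. Such matches describe letters in a window and are not evidence of binding. By gene, GTTGCC was present for 14 of the 28 members, and it was no more frequent in those called below. It was present for 8 of 18 called for exposure, genotype or sex, and for 4 of 12 lower after 1 day of smoke. The windows below, 1 for each of those 8 genes, are shown because these members differed in the comparisons that follow. Each is written 5′ to 3′ on the strand of its gene, with GTTGCC or its reverse complement in capitals.
Hydin (chr8:110266952-110266981, plus strand): tgcggttgctgtGGCAACagatggtaacaa
Spag16 (chr1:69826855-69826884, plus strand): actaggcaacgcGTTGCCgtagtaactgcg
Tekt4 (chr17:25471586-25471615, plus strand): caatgttccttaGGCAACcaggaaccttgc
Zmynd10 (chr9:107547331-107547353, plus strand): cttcaacggcttGGCAACtgccc
Tekt2 (chr4:126325693-126325722, minus strand): gggcggttgctcGGCAACcagagccgcaaa
Tekt1 (chr11:72361880-72361909, minus strand): tgcgtccgtccgGTTGCCatagagaccgca
Fam183b (chr11:58801959-58801988, minus strand): agaggaacatccGTTGCCtggaaactgtag
Stk36 (chr1:74601454-74601483, plus strand): acgccgtttctaGGCAACtgaagactctag

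The forkhead motif was found in the promoter of 1 member, Ak7, which encodes a ciliary adenylate kinase, and in 3.65% of all promoters. A paired RFX site (GTTNCC, 2 free bases and its reverse complement) was also found in 1 member promoter, that of Pifo, and in 0.451% of all promoters. Both promoters are printed because these were the only matches to the longer motifs among the members. Capitals mark the forkhead motif on the opposite strand in Ak7, and the paired RFX site in Pifo, which began 20 bases before the gene start.
Ak7 (chr12:105705732-105706031, plus strand): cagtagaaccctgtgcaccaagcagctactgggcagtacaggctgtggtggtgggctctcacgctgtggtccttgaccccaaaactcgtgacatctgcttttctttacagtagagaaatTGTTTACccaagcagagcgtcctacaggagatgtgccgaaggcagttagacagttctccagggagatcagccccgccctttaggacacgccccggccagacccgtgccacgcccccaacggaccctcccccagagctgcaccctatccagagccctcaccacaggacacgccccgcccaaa
Pifo (chr3:106001448-106001747, minus strand): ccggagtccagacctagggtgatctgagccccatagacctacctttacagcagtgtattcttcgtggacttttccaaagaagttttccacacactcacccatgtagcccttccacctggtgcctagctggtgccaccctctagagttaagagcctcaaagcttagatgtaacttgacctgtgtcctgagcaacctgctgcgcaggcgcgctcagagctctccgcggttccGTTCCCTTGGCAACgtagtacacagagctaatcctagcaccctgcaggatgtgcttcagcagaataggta

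The median of each array lay between 4.44 and 4.55, and any pair of arrays had a correlation of at least 0.965. The transgene, Scnn1b, separated the genotypes at 1 day, with 8.42 to 9.26 in WT mice and 11.5 to 11.9 in βENaC mice. Cyp1a1, a gene induced by smoke, was at 5.43 to 8.98 in sham and 10.7 to 11.6 in smoke mice at 1 day. For 13 smoke-exposed mice with a WT title the source name reads βENaC, and the titles were used. Over both durations, Scnn1b was at most 9.47 in the 40 mice titled WT and at least 11.5 in the 39 titled βENaC. Its level thus went with the titles. When the 34 members were averaged in each mouse, after centering each gene over the 79 mice, 3 βENaC mice lay farther below their group mean than any other mouse. They were a smoke-exposed female at 5 days with a member mean of -0.50, a sham male at 5 days with -0.40 and a sham male at 1 day with -0.35. The last of these was 0.27 below its group mean, close to the next mouse at 0.24 below. All 3 were picked for their low member mean, and mice high in their group were kept. Calls gained without them are therefore not independent support. Each fit leaves out those of the 3 that it would hold, 1 mouse at 1 day and 2 at 5 days, where values are given without them.

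The first question was whether cigarette smoke altered the cilia genes after 1 day. A single day of smoke was accompanied by lower transcript levels of some genes of each axonemal structure. Of the 34 members, 16 were lower in smoke-exposed than in sham mice, none was higher and 18 did not pass the test (limma with terms for exposure, genotype and sex, Benjamini-Hochberg adjusted p below 0.05 over all rows), whereas 9.45% of all rows passed in either direction, 5.03% higher and 4.43% lower. The coefficient, which is the difference in log2 intensity between smoke and sham mice, was negative for 32 of 34 members, as for 44.3% of all rows, and had a median of -0.16, compared with 0.01 over all rows. No member passed the additional limit of a 1.3-fold change, which 1.07% of all rows did. In lung homogenate, fewer ciliated cells and less of each RNA per ciliated cell cannot be told apart.

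**Figure D1:**
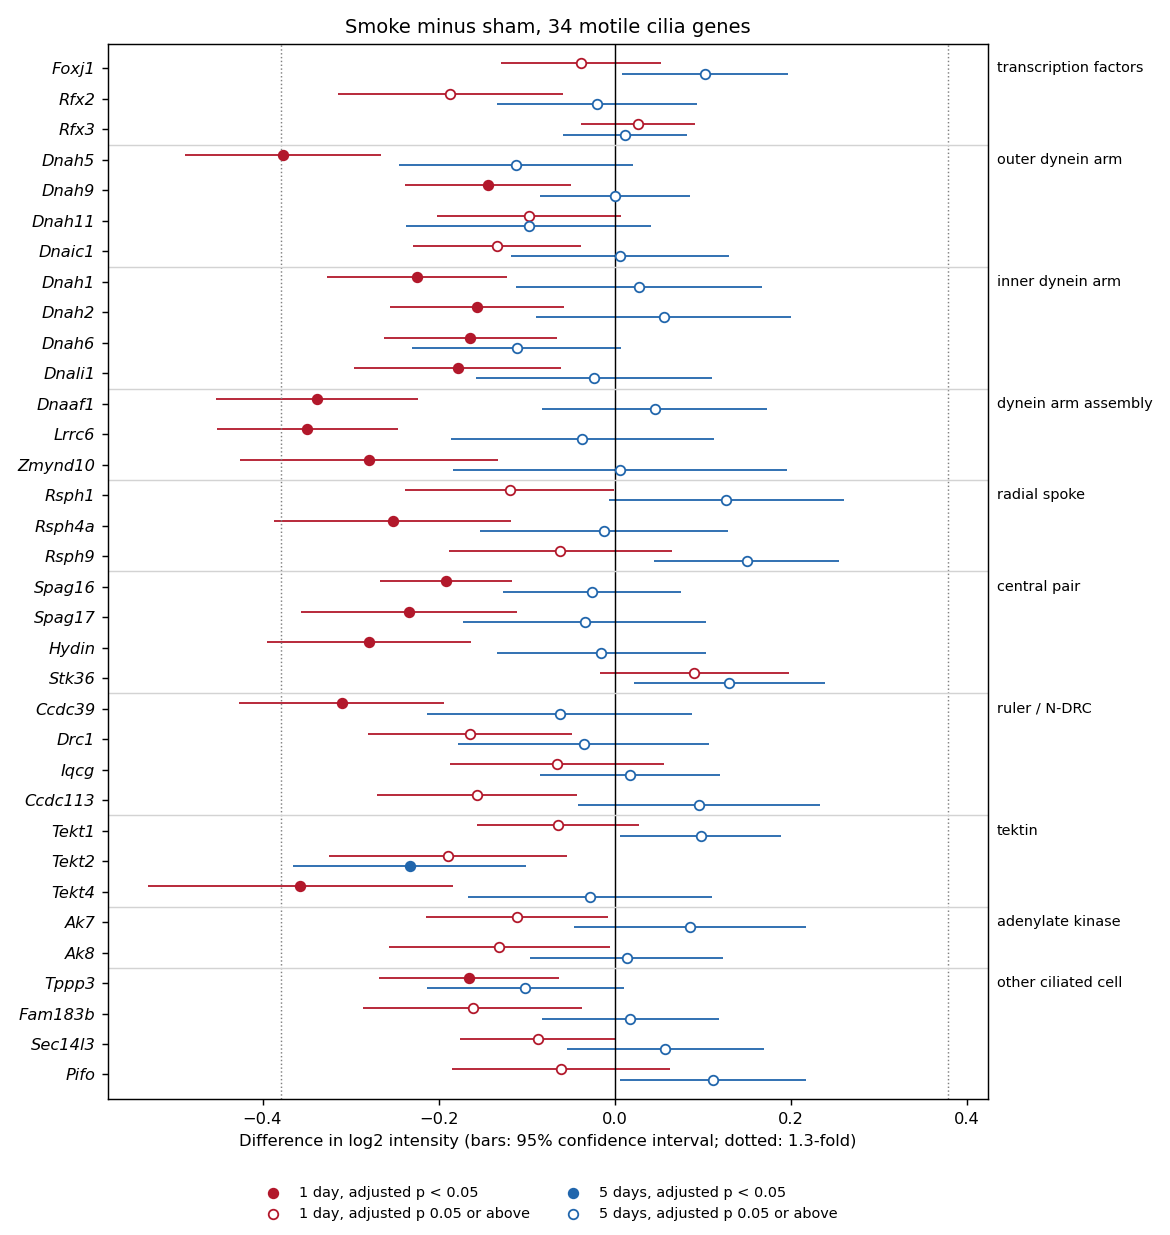
Difference in log2 intensity between smoke-exposed and sham mice for each of the 34 members (rows, grouped by role) after 1 day (red) and 5 days (blue), with 95% confidence intervals; filled points had an adjusted p below 0.05 and dotted lines mark 1.3-fold. At 1 day 16 members are filled and all of them lie left of 0, whereas at 5 days Tekt2 is the only filled point.

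The outer arm motor Dnah5 had the largest change. Its level ranged from 7.38 to 8.18 in the 20 sham mice at 1 day, with a median of 7.76, and from 7.13 to 7.73 in the 20 smoke mice, with a median of 7.39. The ranges overlapped, but all 20 smoke mice lay below the mean of the sham mice of their own genotype and sex. The difference was -0.38 ± 0.06 (SE), so that the linear intensity decreased by 23.0% (limma, adjusted p = 8.24e-06). Within each genotype and sex, the coefficient of Dnah5 was -0.57 in βENaC females and -0.24 in βENaC males, and in WT mice it was -0.42 for females and -0.27 for males. In WT females, the 5 sham mice had 7.73, 7.60, 7.52, 7.82 and 7.85, and the 5 smoke mice had 7.13, 7.19, 7.32, 7.43 and 7.34, so that these groups did not overlap. Of the other outer arm genes, the heavy chain Dnah9 fell by 0.14 ± 0.05, and Dnah11 (-0.10) and the intermediate chain Dnaic1 (-0.13, adjusted p = 0.0682) did not pass.

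All 3 measured assembly factors fell. Lrrc6, which is needed to preassemble dynein arms, ranged from 6.27 to 7.08 with a median of 6.68 in sham mice and from 6.12 to 6.55 with a median of 6.35 in smoke mice. Each of the 20 smoke mice was below its own sham mean, although the ranges overlapped, and the difference was -0.35 ± 0.05 (limma, adjusted p = 7.23e-06). Dnaaf1, another assembly factor, ranged from 5.60 to 6.37 with a median of 5.98 in sham mice and from 5.33 to 6.07 with a median of 5.61 in smoke mice. It was below the sham mean in 19 of 20 smoke mice, and fell by 0.34 ± 0.06 (adjusted p = 6.52e-05). The decrease of Zmynd10, whose product acts with that of Lrrc6, was 0.28 ± 0.07 on the log2 scale.

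**Figure D2:**
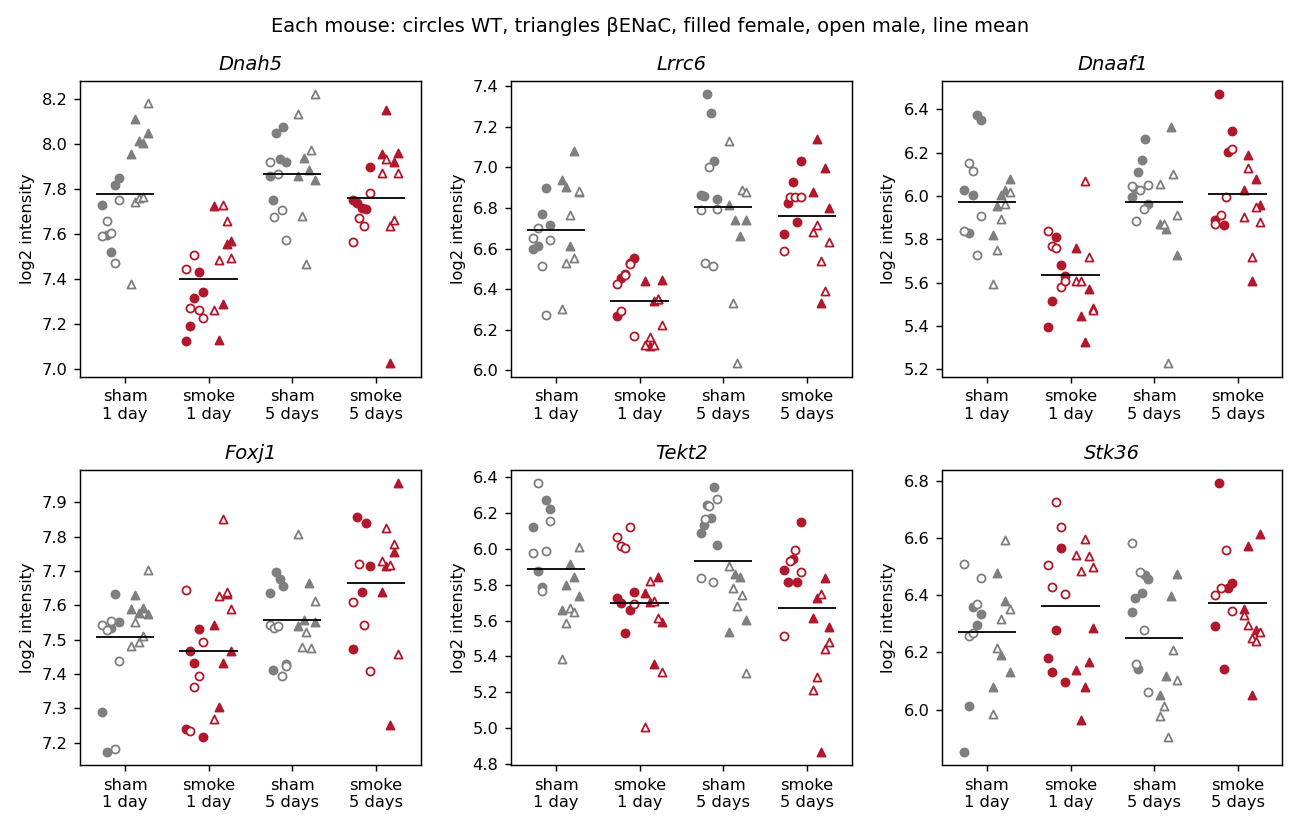
Log2 intensity of Dnah5, Lrrc6, Dnaaf1, Foxj1, Tekt2 and Stk36 in every mouse, by exposure and duration (circles WT, triangles βENaC, filled female, open male, line mean of all mice in the column). Dnah5, Lrrc6 and Dnaaf1 sit lower in the smoke mice at 1 day, with medians of 7.39, 6.35 and 5.61, while the Foxj1 columns overlap.

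All 4 measured inner dynein arm genes passed, with smaller decreases. Dnah1 fell by 0.22, Dnah2 by 0.16, Dnah6 by 0.16 and the light intermediate chain Dnali1 by 0.18. Adjusted p (limma) ranged from 0.00246 for Dnah1 to 0.0436 for Dnali1. When each of the 40 mice was left out in turn, Dnali1 lost its call 23 times, Dnah2 10 times and the outer arm gene Dnah9 19 times, whereas Dnah1 and Dnah6 kept theirs. Of the 4 central pair genes, 3 fell, Hydin by 0.28, Spag17 by 0.23 and Spag16 by 0.19. Spag16, which encodes a central apparatus protein, was below its own sham mean in 19 of 20 smoke mice. The kinase gene Stk36, which is needed for central pair formation, differed in sign from these (0.09, adjusted p = 0.339).

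In the links between these structures, the decreases were limited to fewer members. Ccdc39, whose product forms part of the ruler that sets the axonemal repeat, fell by 0.31 ± 0.06 (limma, adjusted p = 0.000269), and all 20 smoke mice were below their own sham means. Its companions in that group, Drc1 (-0.16), Ccdc113 (-0.16) and Iqcg (-0.07), did not pass. The radial spoke head gene Rsph4a fell by 0.25 ± 0.07, whereas Rsph1 (-0.12) and Rsph9 (-0.06) did not pass. Tekt4, a filament protein of the doublet wall, fell by 0.36 ± 0.09, beside values of -0.19 for Tekt2 and -0.06 for Tekt1 that did not pass. Tppp3, which encodes a tubulin-binding protein, fell by 0.17 ± 0.05. Ak7, Ak8, Fam183b, Sec14l3 and Pifo had coefficients of -0.16 to -0.06 and none passed.

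None of the 3 transcription factors in the set passed the test. Foxj1 ranged from 7.17 to 7.70 with a median of 7.55 in sham mice and from 7.22 to 7.85 with a median of 7.47 in smoke mice. The ranges overlapped almost completely, and the difference was -0.04 ± 0.05 with a 95% confidence interval of -0.13 to 0.05. Rfx2 had a coefficient of -0.19 (limma, adjusted p = 0.0529), which passed without the βENaC sham male lowest in its group at 1 day, and Rfx3 had a coefficient of 0.03.

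Other regulators of ciliogenesis, taken from a list of 17 of which 16 were measured, moved in both directions, with 3 higher and 3 lower. The lower ones included Gmnc, which encodes a geminin-family coregulator at the start of the multiciliated cell program. Gmnc ranged from 5.73 to 6.49 with a median of 6.16 in sham mice at 1 day and from 4.60 to 5.98 with a median of 5.42 in smoke mice. All 20 smoke mice were below their own sham means, and the difference of -0.73 ± 0.08 (limma, adjusted p = 7.53e-09) was a 1.66-fold decrease. Myb, which encodes a transcription factor used in early ciliogenesis, fell by 0.24, and Ccno, needed for centriole amplification, rose by 0.27. The level of Ccno was low, with medians of 3.69 in sham and 4.02 in smoke mice, below the median of every array (4.44 or above). E2f4 and E2f5 rose by 0.16 and 0.14, and the centrosomal gene Cep63 fell by 0.14.

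Across 6 lists of other cilia genes, those regulators included, 131 of 157 genes were measured. Of these, 7 were higher and 42 were lower after 1 day of smoke, with a median of -0.09. Past the 1.3-fold limit were Gmnc, Sntn (-0.43), whose product is found at the ciliary tip, and the inner arm heavy chain Dnah7a (-0.42), whose value is uncertain because near-identical paralogs may share its probes. The 25 measured genes of intraflagellar transport, the system that carries parts along the cilium, included 6 that fell and none that rose, with a median of -0.06.

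Leaving out 1 mouse, the βENaC sham male (replicate 1) lowest in its group, raised the number of members called lower at 1 day from 16 to 23. That of other cilia genes rose from 42 to 50, and 10.1% of all rows then passed in either direction. All 16 members remained, and Rfx2, Dnaic1, Drc1, Ccdc113, Tekt2, Fam183b and Sec14l3 were added. Because this sham mouse was picked for its low member mean, more calls of lower levels follow in part from the choice. Markers of club cells, the secretory cells of the same airways, were measured for 7 of 8 listed genes, of which 3 were lower (Hp, Cldn10 and Aldh1a7), 1 was higher (Scgb3a1) and the defining marker Scgb1a1 had a coefficient of 0.00. The mean of the club cell list was -0.32 to 0.18 in sham and -0.27 to 0.07 in smoke mice at 1 day, with averages of 0.00 and -0.09. In females the averages were 0.03 in sham and -0.12 in smoke mice, and in males they were -0.03 and -0.06. Its part in the result was not tested.

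After 5 days of smoke, the same comparison gave a different picture. Of the 34 members, 1 was lower, none was higher and 33 did not pass, against 6.53% of all rows, 3.17% higher and 3.37% lower. The median coefficient was 0.01, with 18 positive and 16 negative values, compared with 48.9% positive and 51.1% negative over all rows. Tekt2 was the member that passed. It ranged from 5.31 to 6.35 with a median of 5.88 in 20 sham mice and from 4.87 to 6.15 with a median of 5.75 in 19 smoke mice. The ranges overlapped, and the difference was -0.23 ± 0.07 (limma, adjusted p = 0.0224). Without the 2 mice that stood apart at 5 days, Tekt2 was again the member called, with 7.92% of all rows called.

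The genes with the largest decreases at 1 day had coefficients of smaller size at 5 days. They were picked for their values at 1 day, which by itself favours smaller values in a second comparison. Dnah5 had a coefficient of -0.11, Lrrc6 of -0.04, Dnaaf1 of 0.05, Tekt4 of -0.03 and Ccdc39 of -0.06. With all mice, no member was called at both durations. Because only 1 member was called at 5 days, this carries little weight, and no share of all rows is given for it. Without the βENaC mice picked for their low member mean, Tekt2 was called lower at both durations. Its adjusted p (limma) was then 0.0339 at 1 day and 0.0269 at 5 days. At 5 days, Dnah5 ranged from 7.02 to 8.15 with a median of 7.75 in the 19 smoke mice. In the 20 sham mice it ranged from 7.47 to 8.22 with a median of 7.87. For Dnah5, 13 of 19 smoke mice were below their own sham mean at 5 days. The member mean of smoke mice was below that of their own sham group in 17 of 20 mice at 1 day and in 7 of 19 at 5 days. Foxj1 had a coefficient of 0.10 at 5 days (adjusted p = 0.216), and 4 of 19 smoke mice were below their own sham mean. Among the other cilia genes, 9 were higher and 4 were lower. Gmnc was still lower by 0.28 (adjusted p = 0.0134), as were Myb by 0.19 and the dynein heavy chain gene Dnah8 by 0.40.

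**Figure D3:**
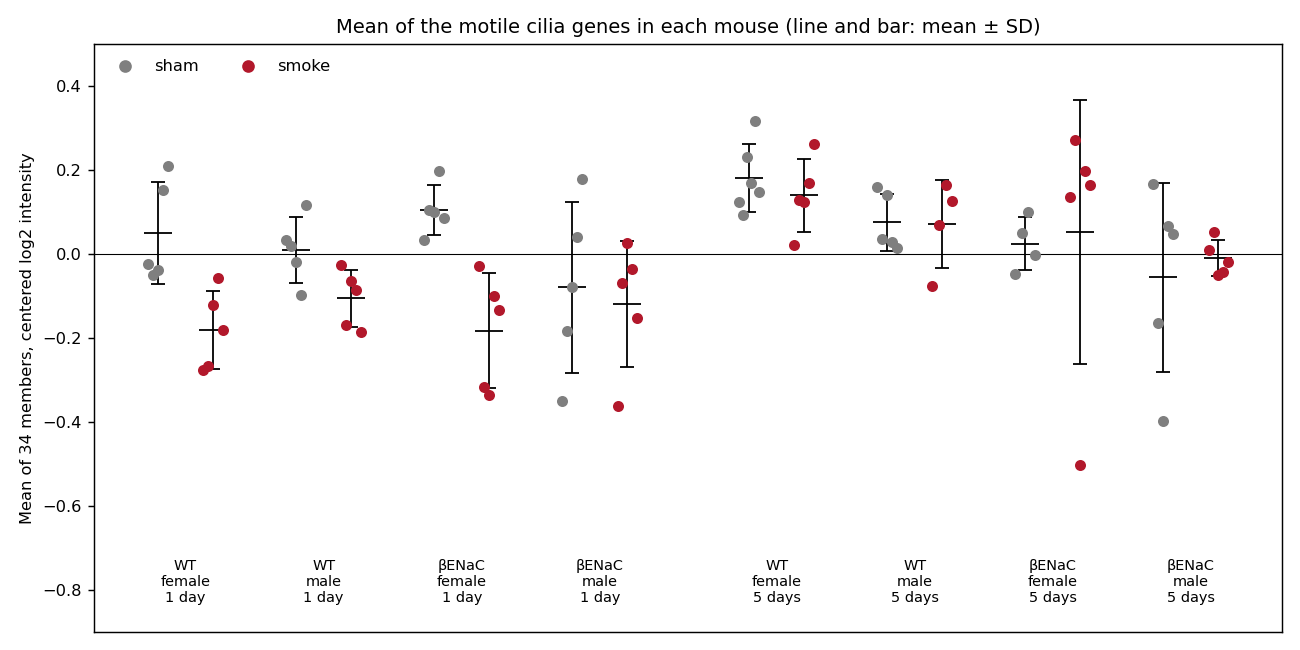
Mean of the 34 members in each mouse, on a log2 scale centered per gene over all 79 mice, for the 8 combinations of genotype, sex and duration (grey sham, red smoke; line and bar, mean ± SD). The smoke mice at 1 day average -0.15, compared with 0.02 for sham, and both averages are 0.06 at 5 days; the mouse at -0.50 is a βENaC female after 5 days of smoke.

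Whether the response to smoke depended on duration was tested directly, with an interaction of exposure and duration over all 79 mice in a model that held no term for genotype or sex. Of the 34 members, 1 passed, Dnaaf1, against 0.612% of all rows. The smoke coefficient of Dnaaf1 was higher at 5 days than at 1 day by 0.38 ± 0.09 (limma, adjusted p = 0.0245). Its level in sham mice had a median of 5.98 at 1 day and 6.01 at 5 days, whereas in smoke mice the median was 5.61 at 1 day and 5.96 at 5 days. The interaction coefficient was positive for 31 of 34 members and for 44.5% of all rows, with a median of 0.17 compared with -0.01 over all rows. Lrrc6 (0.31), Tekt4 (0.32), Dnah5 (0.27) and Hydin (0.26) did not pass, with adjusted p from 0.134 to 0.215. Without the 3 mice, 4 members passed, with Dnah5, Hydin and Ccdc113 added to Dnaaf1, and 1.24% of all rows passed. With genotype and sex in the model, 1 member and 1.49% of all rows passed over all mice. In that model 12 members and 2.41% of all rows passed without the 3 mice. Of the other cilia genes, 8 passed with a positive coefficient, among them Gmnc (0.45) and Sntn (0.38), and 1 passed with a negative one. With genotype and sex in the model these counts were 16 and 1, and without the 3 mice, in the model without those terms, they were 25 and 1.

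Exposure was also examined for interaction with genotype and sex, as 1 joint test at each duration. No member passed at 1 day, where 7 had an unadjusted p below 0.05, or at 5 days, where none did, and an ordinary linear model also called none. Over all rows, 0.00638% passed at 1 day and 0% at 5 days, and 7.26% and 3.46% had an unadjusted p below 0.05. At 1 day the exposure by sex coefficient, male minus female, was positive for 33 of 34 members, with a median of 0.18, and for 52.5% of all rows. Without the βENaC sham male (replicate 1) it was positive for 32 members and for 16665 of 31350 rows. No test of this difference passed for any member. Within βENaC females the median smoke coefficient was -0.30 and 5 members passed (Dnah5, Dnaaf1, Lrrc6, Spag16 and Hydin), as did 0.9% of all rows. Within βENaC males the median was -0.02 and Lrrc6 passed, with 0.896% of all rows. Without sham replicate 1 the median was -0.12 and Lrrc6 again passed, with 0.9% of all rows. In WT females the median was -0.23 and Dnaaf1 passed, with 0.319% of all rows. In WT males it was -0.10 and no member passed, with 0.884% of all rows. The strata share 1 estimate of spread. Without the same βENaC sham male, 8 members passed in βENaC females, with 1.3% of all rows, and 2 in WT females, with 0.472% of all rows. Sham females had a higher member mean at 1 day than sham males, with 0.08 ± 0.09 and -0.03 ± 0.15 (SD, n = 10 each), and the βENaC sham males included the mouse at -0.35.

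The next question was how the βENaC genotype affected the cilia genes. At 1 day, 4 of 34 members passed, 1 higher and 3 lower in βENaC than in WT mice, against 5.87% of all rows in either direction and 2.29% lower, and the median coefficient was -0.02. Dnah5 was higher by 0.21 ± 0.06. Tekt2 was lower by 0.29 ± 0.07, Tppp3 by 0.19 ± 0.05 and Sec14l3, which encodes a lipid-binding protein of ciliated cells, by 0.16 ± 0.04. Adjusted p (limma) was between 0.0041 and 0.0222.

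At 5 days, 6 members were lower and none was higher in βENaC mice, against 10.2% of all rows, 4.85% higher and 5.33% lower. The coefficient was negative for 31 of 34 members and 56.8% of all rows, and its median was -0.13 compared with -0.01 over all rows. Without the 2 βENaC mice that stood apart, 4 members were lower, against 7.62% of all rows called in either direction. The coefficient was then negative for 25 of 34 members and 59.4% of all rows, and its median was -0.07 for members. Tekt2 ranged from 5.52 to 6.35 with a median of 6.01 in 20 WT mice and from 4.87 to 5.90 with a median of 5.61 in 19 βENaC mice. These ranges overlapped, and the difference of -0.41 ± 0.07 (limma, adjusted p = 2.73e-05) was a 1.33-fold decrease, the only member change past 1.3-fold in the comparisons of exposure, genotype and sex at either duration. Over all rows 2.52% passed that limit. Without those 2 mice Tekt2 was still called, and no member was past that limit.

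**Figure D4:**
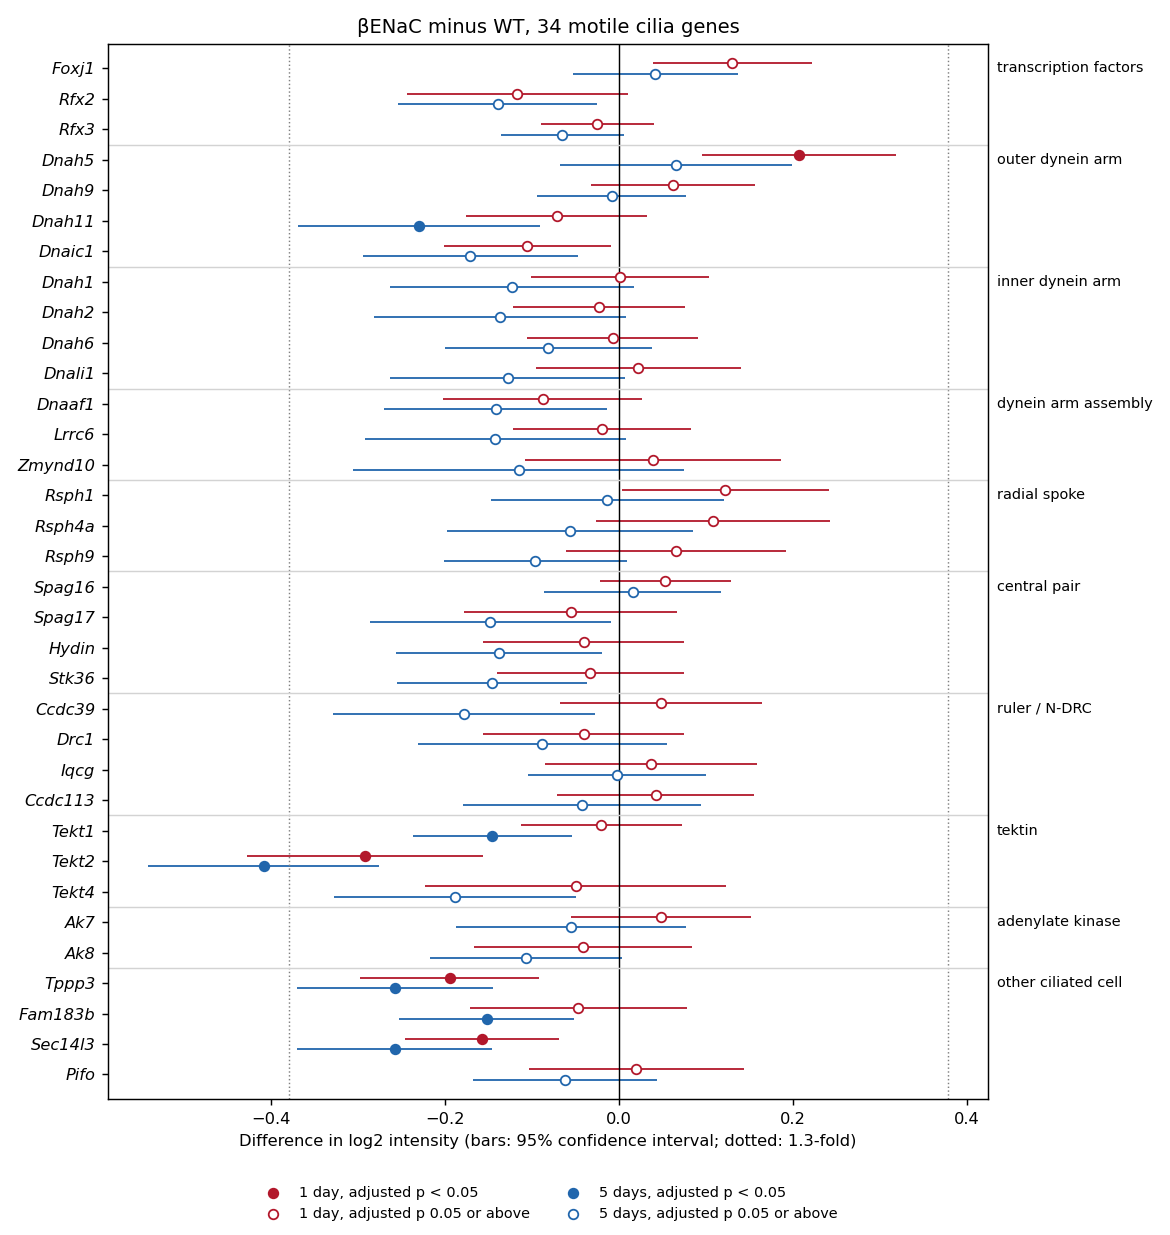
Difference in log2 intensity between βENaC and WT mice for each of the 34 members at 1 day (red) and 5 days (blue), with 95% confidence intervals, drawn as for exposure. Tekt2 has the largest difference at both durations, -0.29 and -0.41, and 31 of 34 members lie left of 0 at 5 days, or 25 of 34 without the 2 βENaC mice that stood apart.

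Tppp3 and Sec14l3 were the other members called lower in βENaC mice at both durations. No share of all rows is given for this overlap, so it carries little weight. Tppp3 had medians of 10.46 in WT and 10.20 in βENaC mice at 5 days, with a range of 10.09 to 10.65 and of 9.55 to 10.41. Sec14l3 ranged from 11.0 to 11.8 with a median of 11.7 in βENaC mice, and 11.9 was its median in WT mice, the lowest of which was at 11.6. Both ranges overlapped, and each gene was lower by 0.26 ± 0.06. The remaining calls at 5 days were Dnah11 (-0.23), Tekt1 (-0.15) and Fam183b (-0.15), of which Tekt1 and Fam183b did not pass without the 2 βENaC mice.

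The interaction coefficient of genotype with duration was negative for all 34 members and 58% of all rows, with a median of -0.10 for members and -0.02 for all rows. Without the 3 βENaC mice it was negative for 33 members and 59.5% of all rows, with a median of -0.07 for members. No member passed this test by limma or by an ordinary linear model, nor did any row (0%), while 1 member and 6.07% of all rows had an unadjusted p below 0.05. Club cell markers moved with genotype as well, with 5 of 7 lower and 1 higher at both durations, Scgb1a1 among the lower ones by 0.06 and 0.07. Goblet cell markers were higher for 6 of 8 genes at 1 day and 7 of 8 at 5 days. Their part in the result was not tested.

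Sex was compared in the same models. At 1 day, 4 members passed, against 9.89% of all rows, 7.82% higher and 2.07% lower in males. Stk36 ranged from 5.85 to 6.56 with a median of 6.17 in 20 females and from 5.98 to 6.73 with a median of 6.47 in 20 males. It was higher in males by 0.24 ± 0.05 (limma, adjusted p = 0.00239), with overlapping ranges. Dnah1 (-0.17), Lrrc6 (-0.16) and Dnah2 (-0.15) were lower in males. Without the βENaC sham male (replicate 1) at 1 day, Tppp3 was also called, higher in males, with 11.1% of all rows called. At 5 days no member passed, 6 had an unadjusted p below 0.05, and an ordinary linear model called none. Over all rows 0.616% passed, and 11.3% had an unadjusted p below 0.05. Without the 2 mice that stood apart at 5 days, Dnah2 was called, with 0.884% of all rows. With all mice, the median of Stk36 at 5 days was 6.39 in females and 6.27 in males. Its sex coefficient, also with all mice, was lower at 5 days than at 1 day by 0.32 ± 0.08 (limma, adjusted p = 0.0202). That interaction test was passed by 0.654% of all rows. Without the 3 mice Rsph4a passed as well, with 1.42% of all rows. The interaction of Stk36 did not pass when arrays were centered on their median (adjusted p = 0.0586) or quantile normalized (adjusted p = 0.0633).

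Over the main terms of exposure, genotype and sex at both durations, 12 members were never called, as were 72.2% of all rows. They were all 3 transcription factors, the outer arm intermediate chain Dnaic1, the radial spoke genes Rsph1 and Rsph9, Drc1, Iqcg and Ccdc113 of the regulatory complex group, the adenylate kinases Ak7 and Ak8, and Pifo. Without the 3 mice 9 were never called, as were 72.1% of all rows. Rfx2, Dnaic1, Drc1 and Ccdc113 then passed for exposure at 1 day, and Tekt1 no longer passed.

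The members also varied together from mouse to mouse within groups. After the 16 group means were removed, all 561 pairs of members had a positive correlation over the 79 mice, with a median Pearson r of 0.54 and a median Spearman rho of 0.46. The values of a pair come from the same arrays and the same lung homogenates. The pair with the highest r was Dnah5 with the central pair gene Hydin (0.92), and the lowest was Rfx2 with Rsph9 (0.05). Without the 3 mice, 558 of 561 pairs were positive and the median r was 0.44.

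**Figure D5:**
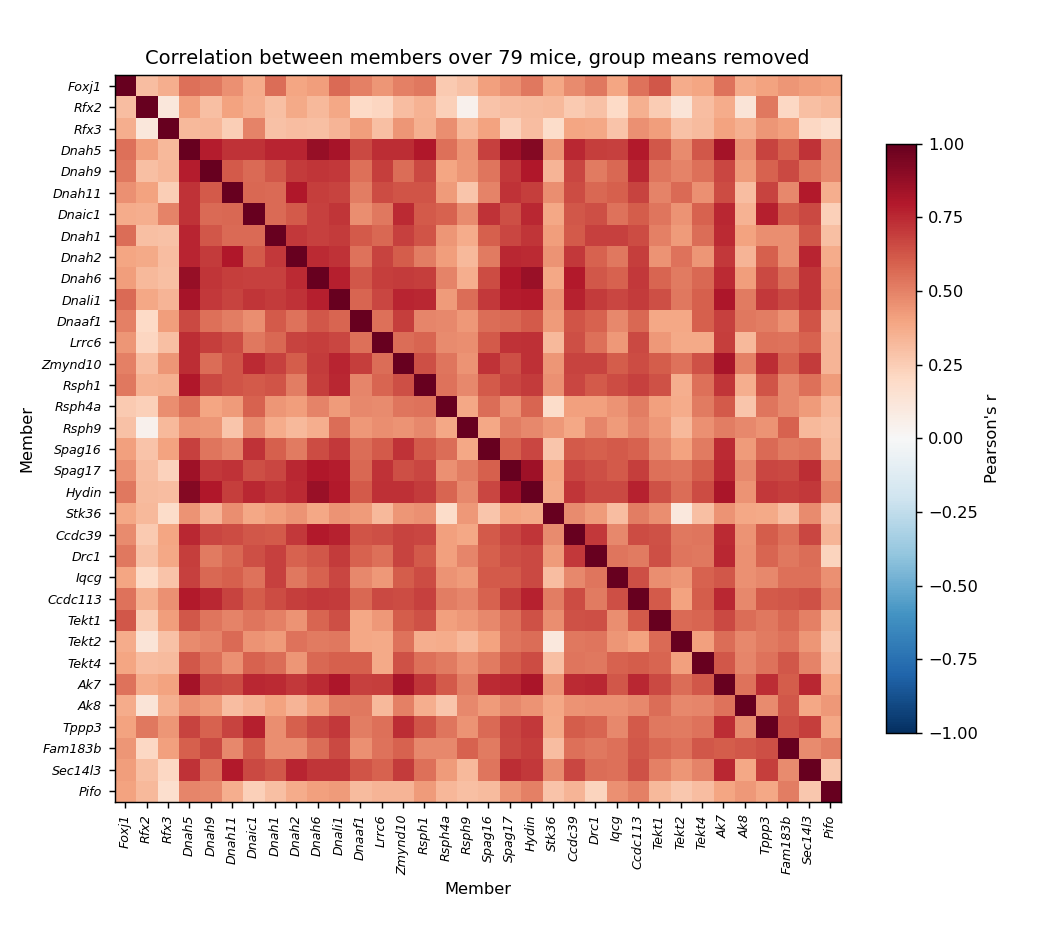
Pearson correlation between each pair of the 34 members over 79 mice after removal of the 16 group means (red positive, blue negative). All 561 pairs are positive, and the palest rows are those of Rfx2, Rfx3 and Pifo.

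Some members followed the others more closely. Against the mean of the remaining members, r was 0.91 for Dnah5, 0.90 for Ak7 and 0.90 for Hydin. It was 0.60 for Foxj1, 0.45 for Rfx3 and 0.39 for Rfx2, and without the 3 mice it was 0.20 for Rfx2. The 10 named genes outside the set with the highest r against the member mean were Cdhr3 (0.93), Spata18 (0.90), Cfap206 (0.89), 4930485B16Rik (0.88), Cfap44 (0.87), Ttc29 (0.87), Vwa3a (0.87), 1110017D15Rik (0.85), Nek5 (0.84) and Cep126 (0.83). The mean of the club cell list had an r of 0.84 with the member mean that of alveolar type 1 cells 0.72, that of goblet cells -0.11 and that of alveolar macrophages -0.38. Without the 3 mice these were 0.77, 0.53, 0.03 and -0.17.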

How the data were processed

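Lung RNA from 79 mice was hybridized to 1 array each, all on 1 array plate per the labels. The deposited log2 intensity values were normalized by the authors by RMA, with Partek Genomics Suite 6.6 for normalization and Affymetrix Expression Console 1.4 for quality control. A genome build is not given in the sources used here. The table held 31350 transcript rows, of which 21057 were named through RefSeq accessions and 780 through the study's tables. The row with the highest mean was taken for each gene. Mice were grouped by sample title.

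At each duration, limma 3.58.1 (R 4.3.3) was fitted to all rows with terms for exposure, genotype and sex, and p-values were adjusted over all rows by Benjamini-Hochberg. Durations were compared by interaction terms over all mice. A difference was called at an adjusted p below 0.05, and past 1.3-fold where stated. The scripts were tested on simulated data. Array numbers, not read depth, limit precision. The member mean and correlations carry no test.

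Members and lists were chosen with earlier results of these data known. Named genes were all members, up to 3 called genes with the largest coefficient per other list and comparison, and the 10 closest correlates. E2f4, E2f5, Cep63, Scgb1a1, Scgb3a1 and the promoter windows of 8 called members were chosen after their values were seen. Alternatives covered the variance model, normalization, filters, weights, blocks, thresholds and left-out mice.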

Additional observations from a re-analysis of the deposited data

Results flagged for a closer look

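Values that stood apart from the other mice of their group by Dixon's test were found 9 times in 112 tests of 7 measures, and chance alone gives about 1 in 20. Among them, the βENaC smoke-exposed female at 5 days, replicate 3, had a member mean of -0.50 beside 0.14 to 0.27 in the other mice, a Dnah5 level of 7.02 beside 7.92 to 8.15, and a Tekt2 level of 4.87 beside 5.56 to 5.84. In the βENaC sham males at 5 days, replicate 3 had a Dnaaf1 level of 5.23 beside 5.87 to 6.10. Foxj1 was 7.66 in replicate 3 of the βENaC sham females at 5 days, beside 7.54 to 7.56, and 7.46 in replicate 5 of the βENaC smoke-exposed males at 5 days, beside 7.72 to 7.82. In WT smoke-exposed females at 5 days, replicate 5 had a Dnah5 level of 7.90 beside 7.71 to 7.75. Lrrc6 was 6.59 in replicate 2 of the WT smoke-exposed males at 5 days, beside 6.85 to 6.86, and Tekt2 was 5.69 in replicate 5 of the WT smoke-exposed males at 1 day, beside 6.01 to 6.12.

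Effects that differed between durations by an interaction term were those of smoke on Dnaaf1, higher at 5 days by 0.38, and of sex on Stk36, with a coefficient of -0.32.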

How the results depend on the processing

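No called member coefficient reversed in sign under any alternative or without any mouse (33 coefficients). Of 362 coefficient values under settings other than leaving out 1 mouse, 21 no longer passed, among them Dnali1 in 4 and Dnah2 in 3 of 11 settings at 1 day of smoke. The number of members called at 1 day of smoke was 13 to 23 under these settings and 13 to 23 when each mouse was left out. Counts that moved past 1.5 times were as follows. For sex by duration, 0 members were called with arrays centered on their median and with quantile normalization. It had 2 without the 30% of rows with the lowest mean, with array weights, with 1 row per symbol, and without the 3 or 4 mice. The 4 mice were the 3 low βENaC mice and replicate 2 of the WT smoke-exposed females at 5 days. For exposure at 5 days, 2 were called with array weights and with the replicate number as a block. For exposure by duration, 2 were called with array weights, 4 without the 3 mice and 3 without the 4 mice. For sex at 1 day, 1 was called in 1 fit over all mice, and for sex at 5 days, 1 without the 3 mice and 3 without the 4. Settings without the 3 or 4 mice were chosen after seeing the data. The cause was not tested.

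Leaving out each mouse gave 4 to 5 members for genotype at 1 day, 2 to 5 for sex at 1 day, 1 to 2 for exposure at 5 days, 4 to 7 for genotype at 5 days, 0 to 1 for sex at 5 days, 1 to 2 for exposure by duration, 1 to 2 for sex by duration and 0 for the others. The lowest count for sex at 1 day, 2, was without replicate 4 of the βENaC sham females. The count of 2 for exposure at 5 days arose without replicate 3 of the βENaC smoke-exposed females, replicate 5 of the WT sham females, replicate 2 of the WT smoke-exposed males or replicate 4 of the βENaC sham males, and that for exposure by duration without the same βENaC smoke-exposed female. The count of 1 for sex at 5 days arose without that female or without replicate 1 of the βENaC sham males. The difference in member mean between smoke and sham at 1 day was -0.19 to -0.16.

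Replicate numbers were not treated as pairs. Deviations of mice with the same number had a mean correlation of 0.01 and the lowest was -0.28, and 24 of 79 mice correlated best with their own number. No chance value was computed for that count, so these values do not settle whether the numbers pair the mice. With the replicate number as a block, 2 members were called for exposure at 5 days and 5 for genotype at 5 days, and the other counts were as without it. Depth does not apply to arrays, and the median SE of the smoke coefficient at 1 day was 0.05 over all rows.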

Other observations

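Among other genes of ciliated cells, Cdhr4, which encodes a cadherin-related protein, ranged from 7.74 to 8.53 with a median of 8.05 in 20 sham mice and from 8.16 to 8.84 with a median of 8.47 in 19 smoke mice, and rose by 0.40 ± 0.05 (limma, adjusted p = 3.41e-07). The ranges overlapped. At 1 day its coefficient was -0.06, and its interaction of exposure with duration did not pass (adjusted p = 0.0504). Of the 28 measured genes of that list, 15 fell and 1 rose at 1 day, and none fell and 5 rose at 5 days. Over all rows, 4.43% fell and 5.03% rose at 1 day, and 3.37% fell and 3.17% rose at 5 days. Such counts are not a test of a difference between durations. Ldlrad1 was called at both durations, lower by 0.24 at 1 day and higher by 0.18 at 5 days. Its interaction of exposure with duration was 0.43 ± 0.09 (limma, adjusted p = 0.0145).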
